A study of Mus musculus with 8 samples.

Results

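The carbonic anhydrase genes were examined in RNA-Seq data from postnatal day 7 (P7) mouse dental pulp. A list of 10 genes was taken from the gene family (*Car2*, *Car3*, *Car4*, *Car5b*, *Car6*, *Car8*, *Car9*, *Car12*, *Car13* and *Car14*), and the family was picked because *Car3* was higher in the mutants. Matched by Ensembl identifier, 6 of the 10 had a row among the 12148 genes analysed, namely *Car2*, *Car3*, *Car5b*, *Car6*, *Car12* and *Car13*. *Car4*, *Car8*, *Car9* and *Car14* were not analysed here. Since *Car3* was chosen on this comparison, its values are given as a description with no test.

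The 8 libraries came from pulp of mandibular first molars of C57BL/6J mice at P7, with the left and right molars combined. There were 4 libraries from Osterix-Cre controls, which carry Cre recombinase driven by the Osterix promoter, and 4 from Osterix-Cre:Tgfbr2f/f mice (*Tgfbr2cko*), which carry the same Cre and also *Tgfbr2*, a receptor for TGFβ, flanked by loxP sites. The Cre is therefore shared by both groups, and in the tooth the Osterix promoter is active in the mesenchyme and in odontoblasts. Vessels, nerves and blood cells, which bulk pulp also holds, need not carry the deletion. The libraries carry the numbers of their labels: those of Osterix-Cre are 49 to 52 and those of *Tgfbr2cko* are 53 to 56. The labels do not state which animals each library came from, so the p-values measure the spread between these libraries. A number in the sample titles, whose meaning the labels do not give, repeats within each genotype, with 3 distinct numbers among the 4 Osterix-Cre libraries and 2 among the 4 *Tgfbr2cko* libraries. If libraries that share a number are not independent, n is smaller than 4 and the p-values are too small.

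Carbonic anhydrases catalyse the interconversion of carbon dioxide and bicarbonate, and with the bicarbonate and proton transporters of the cell membrane they set the pH inside and around cells. The catalytic members bind a zinc ion through histidines of the active site, and they differ mainly in where they act: in the cytosol (*Car2*, *Car3*, *Car13*), in mitochondria (*Car5b*), in secretions such as saliva (*Car6*) or on the outer face of the cell membrane (*Car12*). CAR2 is a fast enzyme, known in bone for its part in acid secretion by osteoclasts. CAR3 has a low hydratase activity and is known as an abundant protein of slow skeletal muscle, fat and liver.

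The genes share their active-site sequence to different degrees. To show this, the coding stretch around the first pair of zinc-binding histidines was read from the GENCODE M21 transcripts (GRCm38) of the 6 measured genes, as 51 bases in frame and 5′ to 3′, with the histidine codons in capitals. The stretch lies in 1 coding exon in each gene, and in *Car2* and *Car3* the first histidine codon of the pair is codon 94.
Car2: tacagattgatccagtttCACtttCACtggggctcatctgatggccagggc
Car3: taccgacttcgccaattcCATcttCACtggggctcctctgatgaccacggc
Car13: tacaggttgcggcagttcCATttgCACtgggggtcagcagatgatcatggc
Car5b: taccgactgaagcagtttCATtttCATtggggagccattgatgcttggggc
Car12: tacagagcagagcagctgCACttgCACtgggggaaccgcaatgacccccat
Car6: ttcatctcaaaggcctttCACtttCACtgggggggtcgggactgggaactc

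These stretches lie at chr3:14895051-14895101 on the plus strand (*Car2*, exon 3), chr3:14866832-14866882 on the plus strand (*Car3*, exon 3), chr3:14650688-14650738 on the plus strand (*Car13*, exon 3), chrX:163991390-163991440 on the minus strand (*Car5b*, exon 4), chr9:66747629-66747679 on the plus strand (*Car12*, exon 4) and chr4:150197363-150197413 on the minus strand (*Car6*, exon 3). Both histidine codons were present in all 6. *Car3* matched *Car2* at 76.5% of the 51 positions and *Car13* at 72.5%, and matched the secreted *Car6* at 39.2%. The exons of the 6 genes shared no bases with the exons of another gene in GENCODE M21. The study counted its reads with an earlier GENCODE release, in which overlaps were not checked.

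In the libraries as a whole, between 8682872 and 13539670 reads per library fell on the genes analysed, and 1 read was worth between 0.0739 and 0.115 counts per 1000000 reads (CPM). The value used for each gene is the deposited log2 CPM. *Tgfbr2* itself averaged 7.48 ± 0.22 in Osterix-Cre and 7.20 ± 0.28 in *Tgfbr2cko* (SD, n = 4 each), a difference of -0.29 (limma-trend adjusted p of 0.790) with overlapping values. The library labelled *Tgfbr2cko* 56 had 7.61, inside the control range. These counts cover the whole gene and do not separate its deleted part. Transcripts of the enamel organ, the epithelium that was dissected away from the pulp, differed widely: the enamel matrix genes *Amelx* and *Ambn* took 18.5% of the reads of library 56 and 0.326% to 2.74% in the other libraries. Calls among the carbonic anhydrases and the pathway lists that are gained or lost without library 56 are given with and without it. Odontoblast and pulp markers (9 of 9 measured) had summed levels of 48061 to 102237 CPM in Osterix-Cre and 29529 to 63270 CPM in *Tgfbr2cko*, endothelial markers (8 of 8) 309 to 458 and 259 to 342 CPM, and Schwann cell markers (3 of 8) 130 to 212 and 133 to 189 CPM.

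*Car3* (ENSMUSG00000027559.5, chromosome 3 from 14863512 to 14872523, plus strand) had log2 CPM values of 5.86, 5.14, 5.74 and 6.26 in Osterix-Cre libraries 49 to 52. In *Tgfbr2cko* libraries 53 to 56 the values were 8.23, 8.46, 7.87 and 6.99. Every mutant library lay above every control library, and library 56 was the lowest of the mutants. The means were 5.75 ± 0.47 and 7.89 ± 0.65 (SD, n = 4 each), a log2 difference of 2.13 or 4.39-fold, and 5 of the 12148 genes had a larger rise. Between 339 and 4334 reads per library fell on the gene. Over the 19 alternative settings the difference stayed between 1.89 and 2.43, and it was 2.43 without library 56.

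*Car3* was also variable within each genotype. Its SD exceeded that of 88.1% of genes in the controls and 92.3% in the mutants, where the median SD of all genes was 0.25 and 0.28 on the log2 scale. The gap between the lowest mutant, library 56, and the highest control, library 52, was narrower than the range of the mutants themselves.

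**Figure D1:**
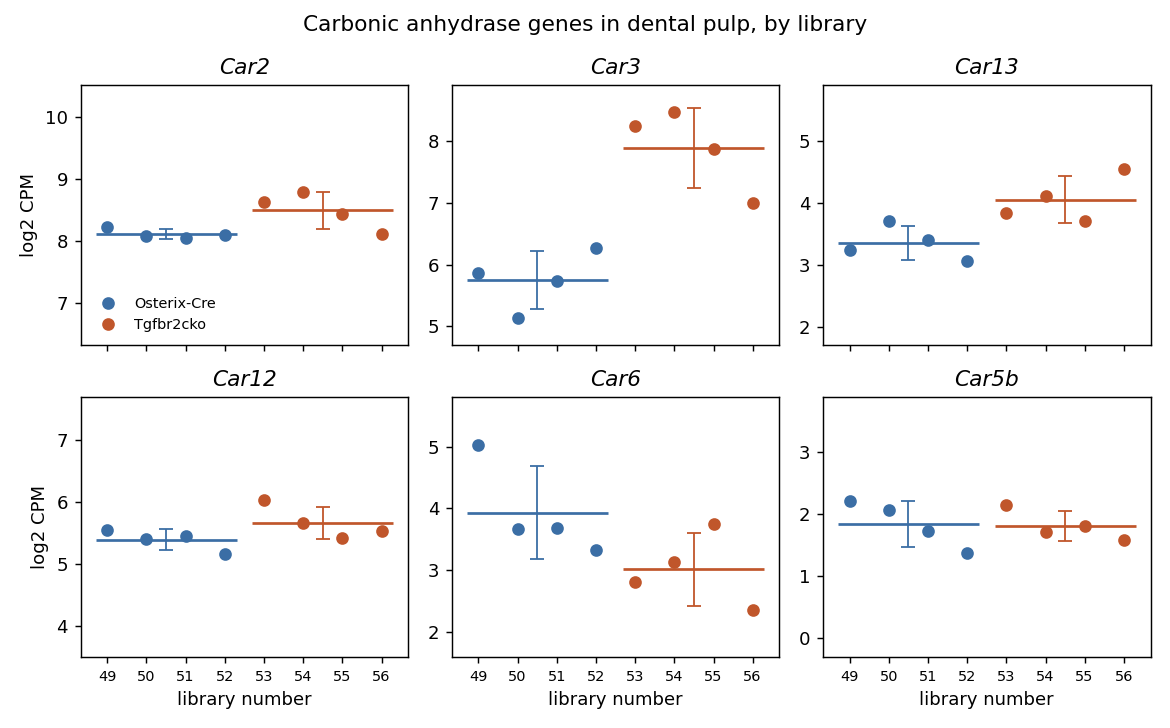
Each panel plots the log2 CPM of 1 carbonic anhydrase gene in the 8 libraries, with Osterix-Cre in blue and *Tgfbr2cko* in orange; horizontal lines are group means, bars are 1 SD of 4 libraries, and all panels span the same range of log2 units. *Car3* is the gene with the widest separation, and the *Car13* values also do not overlap between the genotypes.

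Markers of the tissues in which *Car3* is best known were read beside it. Of 23 skeletal muscle markers, 1 was among the genes analysed (*Mylpf*, a myosin light chain), with a summed level of 1.89 to 5.20 CPM in Osterix-Cre and 1.47 to 3.18 CPM in *Tgfbr2cko*. The other 22, among them the myosin heavy chains *Myh1*, *Myh2*, *Myh4* and *Myh7* and creatine kinase *Ckm*, were not analysed here. Of 14 adipocyte markers, 5 were analysed (*Fabp4*, *Lipe*, *Lpl*, *Pnpla2* and *Pparg*), with summed levels of 83.1 to 109 CPM in the controls and 69.4 to 83.4 CPM in the mutants; *Adipoq*, *Plin1*, *Cidec* and *Lep* were not. *Fabp4*, a fatty acid carrier of fat and capillary cells, was lower in every mutant library than in every control, as were 3.14% of all genes. Its log2 CPM was 1.00 ± 0.55 in *Tgfbr2cko* and 2.40 ± 0.33 in Osterix-Cre (SD, n = 4 each). The limma-trend adjusted p was 0.0794, and only 14 to 59 reads per library fell on the gene. All 8 endothelial markers had lower means in the mutants too, and 2 were altered, *Cldn5* by -1.28 (limma-trend adjusted p of 0.00853) and *Tek* by -0.64 (adjusted p of 0.124), where 3.65% of all genes were altered downward. *Lpl*, a lipase of fat and muscle, differed by 0.55 and was highest in library 56 (4.60), *Pnpla2* differed by -0.43, and *Pparg* and *Lipe* by -0.05 and -0.03, none of which passed the test. The part of either tissue in the *Car3* level was not tested. In bulk pulp, more cells that express a gene and more of its RNA per cell cannot be told apart.

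*Car2* (ENSMUSG00000027562.12, chromosome 3 from 14886273 to 14900770, plus strand) was the most abundant member. Its log2 CPM values were 8.22, 8.08, 8.04 and 8.09 in the control libraries, against 8.63, 8.79, 8.43 and 8.11 in *Tgfbr2cko*. The controls were tightly grouped, with an SD smaller than that of all but 3.93% of genes, and 3 of the 4 mutant libraries lay above them, while library 56 lay among them. The log2 difference was 0.38 (standard error 0.16, 95% interval 0.03 to 0.73), with an unadjusted p of 0.0349 and an adjusted p of 0.511 in limma's moderated test with an intensity trend (limma-trend). Genes are called altered here at the study's thresholds, an unadjusted p under 0.05 together with a change of at least 1.5-fold, so *Car2*, at 1.30-fold, was not altered. Permuting the genotype labels in all 70 possible ways, an exact test whose smallest possible p is 0.0286, gave p = 0.0571.

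The *Car2* difference was 0.51 (limma-trend p of 0.00287) without library 56 and its p was above 0.05 in 6 of 8 fits with a single library removed. Osteoclast markers, which mark another cell known for *Car2*, had 6 of 10 genes analysed, with summed levels of 277 to 336 CPM in Osterix-Cre and 256 to 485 CPM in *Tgfbr2cko*. Among these, *Dcstamp*, *Ocstamp*, *Calcr* and *Oscar* were not analysed here. None of the 6 was altered by limma-trend, against 5.77% of all genes. The sums were 355, 485 and 409 CPM in libraries 53 to 55, above every control, and 256 CPM in library 56, below them. That pattern was carried by *Ctsk*, a protease gene, with 192 to 267 CPM in the controls and 183 to 402 CPM in the mutants, while the other 5 markers summed to 65.1 to 84.4 and 64.8 to 82.8 CPM. Erythroid markers, from cells also rich in *Car2*, had 5 of 9 genes analysed, with summed levels of 655 to 1496 and 565 to 2541 CPM, and were highest in library 56. The part of either cell type in the *Car2* level was not tested.

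*Car13* (ENSMUSG00000027555.8, chromosome 3 from 14641727 to 14663002, plus strand), a cytosolic isoenzyme, had few reads, between 85 and 318 in a library. Its log2 CPM values were 3.24, 3.71, 3.40 and 3.06 in Osterix-Cre and 3.84, 4.12, 3.72 and 4.56 in *Tgfbr2cko*. No mutant value fell as low as a control value, but library 55 only just exceeded library 50 (3.72 and 3.71). The means were 3.35 ± 0.28 and 4.06 ± 0.37 (SD, n = 4 each), and the log2 difference of 0.71 (standard error 0.23, 95% interval 0.20 to 1.21) is a 1.63-fold rise. Its limma-trend p was 0.00942 and its adjusted p 0.255, and the exact permutation p was 0.0286, the smallest that this design allows.

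The mutant order of *Car13* was not that of *Car3*: library 56 was the highest for *Car13* and the lowest for *Car3*. Library 56 also had the most enamel organ RNA, with summed markers of 197420 CPM against 4284 to 30774 CPM in the other libraries. Without library 56 the *Car13* difference was 0.54, with a limma-trend p of 0.0291, which falls under 1.5-fold, and with the mean of *Amelx*, *Ambn* and *Enam* in the model it was 0.65 with a p of 0.0220.

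*Car6* (ENSMUSG00000028972.11, chromosome 4 from 150187015 to 150201332, minus strand), which encodes a secreted isoenzyme, was lower in the mutants. The log2 CPM values were 5.03, 3.67, 3.69 and 3.33 in the control libraries, against 2.82, 3.13, 3.75 and 2.36 in *Tgfbr2cko*, from 62 to 319 reads per library. The genotypes overlapped, since library 55 had more *Car6* than 3 of the controls, and library 49 stood well above the rest. The means of 3.93 ± 0.75 and 3.01 ± 0.58 (SD, n = 4 each) differed by -0.91 (standard error 0.37, 95% interval -1.71 to -0.12), or 0.531-fold. The limma-trend p was 0.0279 and the adjusted p 0.452, while the exact permutation test gave p = 0.114.

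This call rested on single libraries: without library 49 the *Car6* difference was -0.55 with a limma-trend p of 0.108, and without library 56 it was -0.70 with a p of 0.0781. Without library 53 it was -0.85 with a limma-trend p of 0.0502. Genes of late enamel formation were also high in library 49. *Odam* had 7.25 there against 2.78 to 5.10 in the other controls, and *Amtn* had 6.38 against 1.51 to 3.77, on the log2 CPM scale. *Odam* was as high in library 56 (7.09), where *Car6* was lowest. *Klk4*, a protease that clears enamel matrix, had 7.26 to 7.78 in the controls and 4.20 to 5.39 in the mutants, a log2 difference of -2.71 with a limma-trend adjusted p of 0.000136. The 12 enamel organ markers did not move as 1 group: 7 had higher means in the mutants, the median difference was 1.17 (0.26 without library 56), and the epithelial genes *Krt17* (1.67) and *Cdh1* (1.15) were altered upward. Both were highest in library 56, and without it *Krt17* differed by 0.97 and *Cdh1* by 0.55, which is under 1.5-fold. With the mean of *Amelx*, *Ambn* and *Enam* in the model the *Car6* difference was -0.96, with a limma-trend p of 0.0379.

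*Car12* (ENSMUSG00000032373.15, chromosome 9 from 66713686 to 66766845, plus strand) encodes a membrane enzyme whose catalytic part faces outward and which is known as a target of hypoxia signalling. It had log2 CPM values of 5.54, 5.40, 5.45 and 5.15 in Osterix-Cre and 6.02, 5.65, 5.42 and 5.53 in *Tgfbr2cko*. Libraries 53 and 54 were above all controls and the other two mutants lay among them. The difference of 0.27 (standard error 0.17, 95% interval -0.09 to 0.63) did not pass the test (limma-trend p of 0.130, adjusted p of 0.806).

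*Car5b* (ENSMUSG00000031373.4, chromosome X from 163976822 to 164027997, minus strand), the mitochondrial isoenzyme, was the rarest of the 6, from 26 to 45 reads in a library. Its log2 CPM values were 2.21, 2.07, 1.73 and 1.37 in the control libraries, against 2.15, 1.72, 1.81 and 1.58 in *Tgfbr2cko*, which overlapped throughout. The difference was -0.03 (standard error 0.29, limma-trend p of 0.923, adjusted p of 0.998). Its 95% interval of -0.66 to 0.60 holds changes of 1.5-fold in either direction, so a change of that size is not excluded.

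Counted together, 2 of the 5 measured members other than *Car3* were altered at the study's thresholds, *Car13* higher and *Car6* lower, where 5.77% of all 12148 genes were altered. After adjustment over all genes, where 0.947% of genes had an adjusted p under 0.05, 0 of the 5 did by limma-trend, and 3 of the 5 (*Car2*, *Car6* and *Car13*) had an unadjusted p under 0.05, against 8.38% of all genes. The median difference of the 5 was 0.27, and that of all genes was -0.01. The genotypes did not overlap for 1 of the 5, *Car13*, as for 5.27% of all genes. Without library 56, 0 of the 5 were altered. With so few members these shares describe the 5 genes alone.

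**Figure D2:**
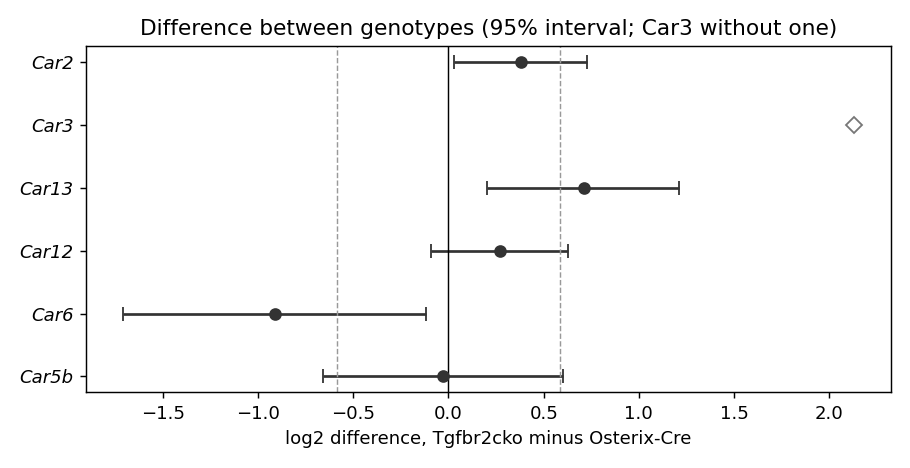
The log2 difference of each measured carbonic anhydrase gene, *Tgfbr2cko* minus Osterix-Cre, is plotted with its 95% interval from limma-trend; dashed lines mark 1.5-fold and the open diamond marks *Car3*, shown without an interval because it was chosen for this difference. The intervals of *Car2*, *Car13* and *Car6* leave out 0, and those of *Car12* and *Car5b* include it.

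Levels of different genes were compared per length, as CPM per kilobase of exon. In Osterix-Cre pulp the order was *Car2* (114 ± 6.40), *Car3* (19.5 ± 5.98), *Car6* (9.36 ± 5.75), *Car12* (5.52 ± 0.62), *Car13* (4.49 ± 0.884) and *Car5b* (0.572 ± 0.144; SD, n = 4 each). Over the 4 control libraries the ranges of *Car2* and *Car5b* were clear of their neighbours, and those of *Car3* and *Car6*, of *Car6* and *Car12*, and of *Car12* and *Car13* overlapped. Within each control library *Car3* was above *Car6* and *Car6* above *Car12*, and only *Car12* and *Car13* changed places. In *Tgfbr2cko* pulp *Car2* had 151 ± 29.3 and *Car3* 88.4 ± 34.0 CPM per kilobase, followed by *Car13* (7.42 ± 2.02), *Car12* (6.71 ± 1.28), *Car6* (4.70 ± 1.95) and *Car5b* (0.553 ± 0.0977). The places of *Car6* and *Car13* were therefore exchanged, although the mutant ranges of *Car13*, *Car12* and *Car6* overlapped, as did those of *Car2* and *Car3*.

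*Car3* had 10.9% to 23.9% of the *Car2* level per length in the controls and 38.7% to 67.4% in the mutants, and *Car2* was the higher of the pair in all 8 libraries. As a share of the summed level per length of the 6 genes, *Car3* took 12.7% ± 3.70 in Osterix-Cre and 33.2% ± 5.82 in *Tgfbr2cko* (SD, n = 4 each), and *Car2* took 74.5% ± 2.87 and 58.9% ± 3.63. The summed level ran from 143 to 173 CPM per kilobase in the controls and from 178 to 325 in the mutants, with library 56 the lowest of the mutants. These shares carry the choice of *Car3* and are descriptions.

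*Car13*, *Car3* and *Car2* lie in 1 cluster on chromosome 3, together with *Car1*, which was not analysed here. The cluster spans 259044 bases of GRCm38, from 14641727 to 14900770, and 13749 bases separate the end of *Car3* from the start of *Car2*. *Car3*, picked for its rise, differed by 2.13 on the log2 scale. The other measured genes of the cluster, *Car13* and *Car2*, had higher means in the mutants by 0.71 and 0.38. A higher mean was found for 48.8% of all genes. *Car3* and *Car2* are direct neighbours on the same strand. To see whether the genes beside the cluster differed too, a window of 500 kb on each side was examined, a choice made after the values were seen. It holds 11 protein-coding genes, of which 6 were analysed. The 3 outside the family were *Lrrcc1*, with a difference of 0.35 (standard error 0.18, limma-trend adjusted p of 0.665), *1810022K09Rik*, with 0.17 (standard error 0.20, adjusted p of 0.971), and *E2f5*, with 0.06 (standard error 0.18, adjusted p of 0.998). None of these 3 passed the test, and their differences from the cluster's genes were not tested.

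**Figure D3:**
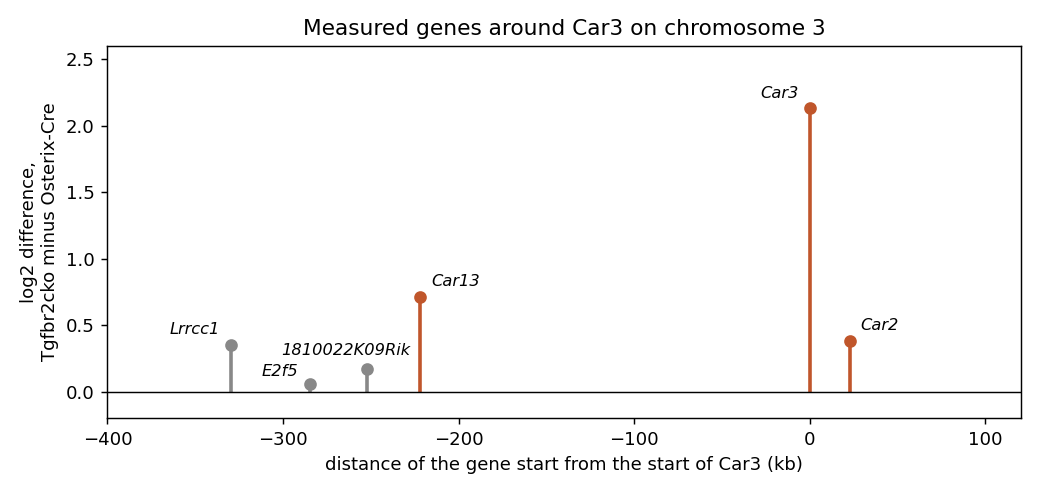
Each stem is a measured gene within 500 kb of the carbonic anhydrase cluster, placed by the distance of its start from the start of *Car3* in kb, and its height is the log2 difference, *Tgfbr2cko* minus Osterix-Cre; family members are in orange and other genes in grey. *Car3* stands highest at 2.13, with *Car2* at 0.38 beside it and the grey genes between 0.06 and 0.35.

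The rest of the family showed no difference that passed the test. *Car11*, a secreted relative without catalytic activity, had 3.14 ± 0.26 and 3.12 ± 0.29 (SD, n = 4 each), a difference of -0.02 with a 95% interval of -0.52 to 0.48. The receptor phosphatases *Ptprg* and *Ptprz1*, which carry a carbonic anhydrase-like domain outside the cell, differed by -0.02 (95% interval -0.32 to 0.29) and -0.20 (95% interval -0.87 to 0.47). *Car1*, *Car5a*, *Car7*, *Car10* and *Car15* were not analysed here.

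Bicarbonate made or used by these enzymes crosses membranes through the Slc4 and Slc26 families. Of 20 such genes 9 were measured, and 7 of the 9 had a higher mean in the mutants, as did 48.8% of all genes. None of the 9 was altered, against 5.77% of all genes. By limma-trend 2 of the 9 had an unadjusted p under 0.05, and both were sodium-bicarbonate cotransporters. *Slc4a4* had 5.22, 4.51, 4.99 and 4.31 in the control libraries, against 5.38, 5.02, 5.04 and 5.87 in *Tgfbr2cko*, overlapping between genotypes, with a difference of 0.57 (standard error 0.24, p of 0.0338, adjusted p of 0.499 from limma-trend). *Slc4a7* had 3.24, 2.99, 3.37 and 3.62 in the control libraries, against 3.62, 3.85, 3.96 and 3.65 in *Tgfbr2cko*, a difference of 0.47 (standard error 0.21, limma-trend p of 0.0405, adjusted p of 0.548), and its groups met at 3.62 without crossing. *Slc4a4* lay close to the fold threshold. It was altered in 4 of the 8 fits with a library removed (0.65 to 0.73, without 49, 51, 54 or 55), and without library 56 it was 0.39 with a limma-trend p of 0.104. Without library 56 the sulfate and anion exchanger gene *Slc26a1* was altered, at -0.87 (p of 0.0215) instead of -0.54 (p of 0.175). The median difference of the 9 genes was 0.19. Without library 56 it was 0.10 and 5 of the 9 had a higher mean, where the median of all genes was 0.07 and 63.7% of all genes had a higher mean.

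Among proton exchangers and lactate carriers, 12 of 17 genes were measured and 2 were altered, 1 in each direction, where 2.12% of all genes were altered upward and 3.65% downward. *Slc9a3r1*, which encodes the scaffold NHERF1 that binds sodium-proton exchangers, had log2 CPM values of 5.72, 5.0, 5.98 and 6.17 in Osterix-Cre and 4.08, 4.67, 4.71 and 3.70 in *Tgfbr2cko*. All mutant libraries were below all controls, and the fall of -1.43 (standard error 0.28) passed after adjustment (limma-trend p of 1.87e-04, adjusted p of 0.0259).

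*Slc16a3*, which encodes the lactate exporter MCT4, had 2.53, 2.69, 3.37 and 3.35 in the control libraries, against 4.67, 4.75, 4.65 and 3.34 in *Tgfbr2cko*. The mutants 53 to 55 were far above the controls and library 56 was level with the higher controls. The difference was 1.37 (standard error 0.32, limma-trend p of 9.80e-04, adjusted p of 0.0731), and the exact permutation p was 0.0857. Without library 56 it was 1.70 (limma-trend adjusted p of 0.00331), and *Slc16a7*, a monocarboxylate carrier gene, was altered as well, at -0.98 (limma-trend p of 0.00361) instead of -0.66 (p of 0.0702). Library 56 was thus the lowest of the mutants for *Slc16a3*, as it was for *Car3*.

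Subunits of the V-ATPase, the proton pump of lysosomes and osteoclasts, showed 1 altered gene, a lower one, among 20 measured of 25, where 3.65% of all genes were altered downward. This was *Atp6v1d*, a subunit of the cytosolic sector, with 7.52, 7.29, 7.54 and 7.57 in Osterix-Cre and 6.76, 7.05, 6.69 and 6.95 in *Tgfbr2cko*. No mutant value reached the controls, and the difference was -0.62 (standard error 0.14, limma-trend p of 6.92e-04, adjusted p of 0.0623). It was -0.58 without library 53 and -0.56 without library 55, under 1.5-fold, with limma-trend p of 0.00257 and 0.00424, and -0.65 without library 56 (adjusted p of 0.0457). The other 19 differed by between -0.46 and 0.22, and the median of the 20 was -0.04.

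Since *Car12*, and *Car9*, which was not analysed here, are known as hypoxia targets, genes of the hypoxia response were read beside them. Of 18 genes 17 were measured, and 14 had a higher mean in the mutants, as did 48.8% of all genes. In all 4 were altered and all 4 of these were higher, where 2.12% of all genes were altered upward. *Ldha*, which makes lactate from pyruvate, had 9.32, 9.39, 9.29 and 9.30 in the control libraries, against 10.36, 10.43, 10.09 and 9.44 in *Tgfbr2cko*. The control values of *Ldha* fell within a narrow band and every mutant was above it, with library 56 the nearest; the difference was 0.75 (standard error 0.21, limma-trend p of 0.00365, adjusted p of 0.153). *Ankrd37*, a hypoxia-induced ankyrin protein gene, differed by 1.02, the glucose transporter *Slc2a1* by 0.68 and hexokinase *Hk2* by 0.69, with unadjusted p of 0.0136, 0.0107 and 0.0275 and overlapping groups. Both *Hk2* (5.16) and *Slc2a1* (5.17) were highest in library 56. Without library 56 these 2 calls were lost (*Slc2a1* 0.58, p of 0.0291, under 1.5-fold; *Hk2* 0.47, p of 0.0874, from limma-trend). In their place *Adm*, a vasodilator peptide gene, was altered at 0.92 instead of 0.57, and the collagen prolyl hydroxylase gene *P4ha1* at 0.73 instead of 0.58. The count without library 56 was again 4, with *Ldha* and *Ankrd37* in both. Other libraries decided calls as well: *Ankrd37* was lost without library 54 (0.79, p of 0.0554), *Hk2* without library 51 (0.65, p of 0.0600) or 52 (0.48, p of 0.0966), and *Slc2a1* without library 52 (0.53, p of 0.0385, under 1.5-fold), all from limma-trend.

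None of the 4 passed adjustment, with limma-trend adjusted p from 0.153 to 0.449, but without library 56 *Ldha* did (0.97, adjusted p of 0.00614). *Vegfa* and *Pdk1*, also induced by hypoxia, had differences of 0.15 and 0.40 that did not pass the test. The median of the 17 was 0.31, and for all genes it was -0.01. Without library 56 the median of the 17 was 0.44, and that of all genes was 0.07. All 17 then had a higher mean, as did 63.7% of all genes.

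**Figure D4:**
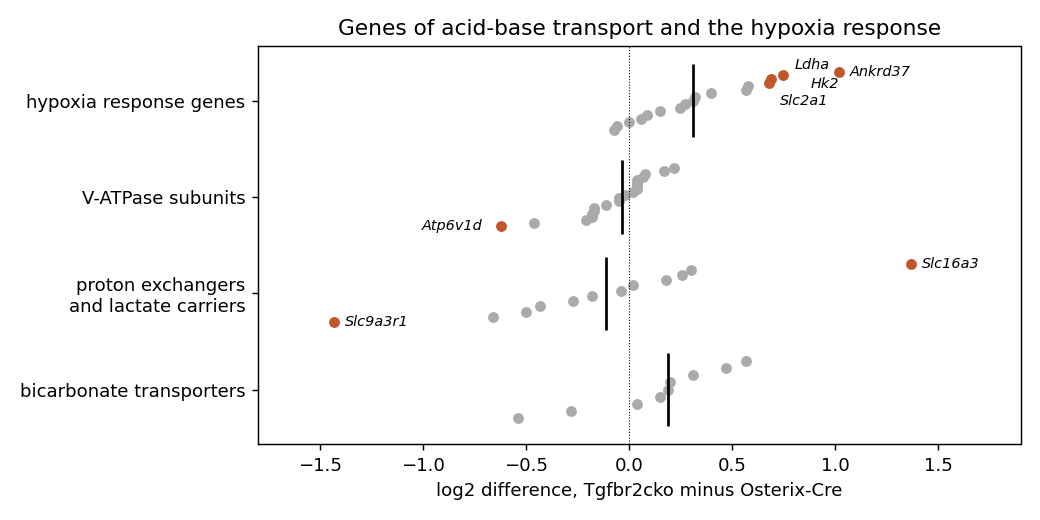
Each point is a measured gene of 4 lists, placed by its log2 difference, *Tgfbr2cko* minus Osterix-Cre; orange points passed both thresholds (p under 0.05 and 1.5-fold), and the black bar is the list's median. The medians are 0.19 for bicarbonate transporters, -0.11 for proton exchangers and lactate carriers, -0.04 for V-ATPase subunits and 0.31 for hypoxia response genes.

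Among the 5 genes whose log2 values followed *Car3* most closely over the 8 libraries, by Pearson's r, were the homeobox gene *Meox1* (0.98), *Spry1* (0.97), an inhibitor of growth factor receptor signalling, the globin gene *Hbq1b* (0.97) and *Sat1* (0.96), which acetylates polyamines. These 4 were higher in every mutant library than in every control, as were 2.13% of all genes. Their differences ran from 0.45 for *Sat1* to 1.73 for *Hbq1b*. They were chosen for following *Car3*, which was picked for its rise, so this separation largely follows from the choice. After the genotype means were subtracted their r was 0.76 to 0.91. These coefficients share the genotype difference and the library scaling, and come from 8 libraries. When each genotype's mean was subtracted first, *Osbpl8* (0.99), *Tmem241* (0.99), *Sema5a* (0.98), *Mavs* (0.97) and *Rnf213* (0.97) ranked highest, and 4 of these 5 differed by 0.07 or less between the genotypes. Within the family, *Car2* followed *Car3* with an r of 0.88, and 0.80 after subtraction of the genotype means, while *Car13* had 0.51 and -0.78.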

How the data were processed

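RNA from P7 mandibular first molar pulp was amplified by a low-input full-length protocol and sequenced by the authors. Per the labels and the study's methods, reads were trimmed with fastp 0.21.0, aligned with HISAT2 2.1.0 to GRCm38.p5 and counted with featureCounts (Subread 2.0.1), and genes of low signal were removed. Strandedness of the counting is not given in the sources used here. The deposited values are voom log2 CPM (log2 of reads plus 0.5, scaled to 1000000 reads), and 12148 genes by 8 libraries were used. Whole reads were recovered from the voom formula, with a largest distance from a whole number of 1.42e-05 over 97184 values. Depth was 8682872 to 13539670 reads per library, and 3 reads, the floor used, are worth 0.222 to 0.346 CPM.

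Symbols, positions and exon lengths came from GENCODE M21, which named 12144 of the identifiers. The 4 *Tgfbr2cko* and 4 Osterix-Cre libraries were compared over all genes with limma 3.58.1 (R 4.3.3), as a moderated test with an intensity trend and Benjamini-Hochberg adjustment; the fit was tested on simulated data. Single values also had a two-sided exact permutation test. Levels per length are CPM per kilobase of merged exons. Plots used matplotlib 3.10.9 (Python 3.11.15). The members, lists and tests were chosen with earlier results of these data known. Named genes were the measured family, every altered gene of a pathway list or, with none, the 2 of smallest p, defining markers, *Tgfbr2*, *Amelx* and *Ambn*, and the 5 genes most correlated with *Car3* before and after subtracting genotype means. The chromosome 3 neighbours, *Vegfa*, *Pdk1* and the genes named for a call gained without library 56 or under an alternative were added after their values were seen. One of the genes most correlated with *Car3* is not reported here. Alternatives are covered in the closing section.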

Additional observations from a re-analysis of the deposited data

Results flagged for a closer look

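Within groups of 4 libraries, the 260 groups of 130 member, list, neighbour and *Car3*-like genes were searched for 1 library far from the other 3, by Dixon's test with a critical value of 0.829. In 15 groups 1 library stood apart, which is close to the share that chance gives, about 1 in 20 groups. The groups are therefore listed as a description. No measured member of the 6 carbonic anhydrases was among them.

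*Tgfbr2cko* 56 stood apart for 6 genes, on the log2 CPM scale. It was low for the lactate exporter gene *Slc16a3* (3.34, others 4.65 to 4.75), for *Slc9a8* (4.36, others 4.88 to 4.98) and for the lipase gene *Pnpla2* (4.82, others 5.69 to 5.76). It was high for the globin genes *Hbb-bs* (9.97, others 7.83 to 8.08), *Hbb-bt* (7.71, others 5.53 to 5.84) and *Hba-a1* (9.89, others 7.97 to 8.26). Osterix-Cre 49 was high for *Hbb-bs* as well (9.07, others 7.73 to 7.88) and low for *Slc16a1* (5.03, others 5.29 to 5.35).

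Osterix-Cre 50 was low for the V-ATPase genes *Atp6v1d* (7.29, others 7.52 to 7.57) and *Atp6v0b* (7.37, others 7.60 to 7.64), and high for the endothelial genes *Cldn5* (5.32, others 4.62 to 4.73) and *Tek* (5.41, others 4.89 to 4.96). The other 3 were *Atp6v0e* in *Tgfbr2cko* 53 (8.58, others 8.33 to 8.36), *Atp6v1e1* in Osterix-Cre 51 (7.38, others 7.67 to 7.72) and *Pecam1* in *Tgfbr2cko* 55 (6.04, others 5.65 to 5.67).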

How the results depend on the processing

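Differences of single genes were recomputed under 19 alternatives (18 for *Car5b*), and counts of altered genes under 21. *Car3* stayed between 1.89 and 2.43 and was higher in the mutants in all 19. *Car12* stayed between 0.15 and 0.44, with no p under 0.05. *Car2* kept a p under 0.05 in 11 of 19 (0.28 to 0.55), *Car6* in 13 of 19 (-1.16 to -0.05) and *Car13* in 18 of 19 (0.54 to 0.83). *Slc9a3r1* did so in 19 of 19, *Slc16a3* in 18 and *Slc4a4* in 10. With the adipocyte mean in the model, which rests on 5 genes including *Fabp4*, itself different between genotypes, *Car6* was -0.05 (limma-trend p of 0.924) and *Car13* was 0.83 (p of 0.0520), larger than its 0.71. The muscle term rests on 1 gene.

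*Car5b*, whose difference was -0.03, changed sign to 0.00 with library weights, 0.01 with quantile normalization or the enamel covariate, 0.07 with samples of 1 title number averaged and 0.52 with the adipocyte covariate, and ran from -0.19 to 0.09 with 1 library left out. The cause was not tested. The number of altered carbonic anhydrases other than *Car3*, 2 in the report, was 0 with library weights, the adipocyte covariate, a 2-fold threshold or adjusted p, 1 with the muscle covariate, and 0 to 2 with 1 library left out: it was 1 without Osterix-Cre 49 or *Tgfbr2cko* 53 and 0 without *Tgfbr2cko* 56. Altered bicarbonate transporters, 0 in the report, were 1 with library weights, averaged title numbers or the enamel covariate, 2 with the muscle covariate, and 0 to 1 with 1 library left out. *Slc4a4* was the altered gene with averaged title numbers (0.61) and 1 of the 2 with the muscle covariate (0.80). Proton exchangers and lactate carriers, 2 in the report, were 4 with the muscle covariate, 1 with the adipocyte covariate or adjusted p, and 2 to 3 with 1 library left out. The count was 3 with library weights, averaged title numbers or the enamel covariate, and *Slc16a7* was the gene added each time. The V-ATPase count, 1 in the report, was 0 with a 2-fold threshold or adjusted p, and 0 to 1 with 1 library left out. With the muscle covariate it stayed at 1 but *Atp6v1g2* (-0.94) took the place of *Atp6v1d* (-0.57, under 1.5-fold). Hypoxia genes, 4 in the report, were 1 with the muscle covariate (where *Ankrd37* was 0.48 and *Ldha* 0.54, and *Hk2* remained) or a 2-fold threshold, 0 with adjusted p, 6 with the adipocyte covariate, and 3 to 5 with 1 library left out. With library weights, as without *Tgfbr2cko* 56, *Adm* and *P4ha1* replaced *Slc2a1* and *Hk2*. The fewer calls under stricter thresholds follow from the thresholds. A filter at a mean log2 of 3 removed *Car5b*. No paired analysis was possible because the genotypes share only the title number 2, and the labels do not say that it marks a pair. *Car5b* rests on 26 to 45 reads.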
